A study of Rattus norvegicus with 65 samples.

Results

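The genes described here are the natriuretic peptides, their converting protease and their receptors: Nppa (Entrez 24602), Nppb (25105), Corin (289596), Npr1 (24603), Npr2 (116564) and Npr3 (25339). They were chosen by name, as the rows of the count table that map to these 6 rat symbols, and all 6 are among its 14554 genes. The wide spread of Nppb in 1 control group was already known when they were selected. For that reason some values behind the choice are given as descriptions with no test. These values cover all members in DMSO1 against DMSO2 at 6 hours and Nppb in any comparison that uses DMSO1 at 6 hours. Other values were known as well, among them Corin between the controls at the later time and Nppb in drug groups. Those were tested, and their tests are not independent of the choice of genes.

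Nppa encodes atrial natriuretic peptide (ANP) and Nppb encodes B-type natriuretic peptide (BNP). Both are hormones of heart muscle cells, are high in the fetal ventricle and in the stressed adult heart, and cause sodium and water loss and relax vessels. Corin is a membrane protease of cardiomyocytes that cuts the precursor of ANP to its active form. Npr1 is the receptor of ANP and BNP and Npr2 that of C-type natriuretic peptide (CNP), and both make cyclic GMP in the cell. Npr3 has no guanylyl cyclase domain and is known as the clearance receptor, which binds the peptides and takes them up.

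RNA was measured in primary neonatal rat cardiomyocytes, cultured from newborn rats and starved of serum overnight, after 6 or 24 hours with 10 mM 5-fluorouracil (5FU), 2.5 mM acetaminophen (Ace), 1.25 µM doxorubicin (Dox) or vehicle. DMSO1, with 1% DMSO, was the control of 5FU, and DMSO2, with 0.25% DMSO, was the control of both Ace and Dox. The 10 groups held 65 libraries. Dox and DMSO2 had 7 at each time, 5FU and DMSO1 had 6 at each time, and Ace had 6 at 6 hours and 7 at 24 hours. All wells were plated from a single pool of cells of several litters, so replicates are parallel cultures, and the tests measure the spread between cultures and not between animals. The rat strain is not given in the sources used here.

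Library totals ran from 14332827 to 25738297 estimated counts. Levels are given as CPM, counts scaled to a library total of 1e6 after correction by TMM, a factor that was between 0.859 and 1.07. Cardiomyocyte identity was checked with 14 marker genes, none of which was at 0 in any library, and their summed level was 48520 to 53407 CPM in DMSO2 at 6 hours. Fibroblast, endothelial, macrophage and mural cell markers were present too, at 9749 to 14531, 260 to 320, 67.3 to 80.5 and 482 to 693 CPM in the same libraries. In 6 libraries the distance to their own group over all genes was more than 1.25 times the group's median distance. They were library 1 of 5FU, library 3 of DMSO1 and libraries 4 and 7 of Dox at 6 hours, and library 1 of DMSO1 and library 7 of Dox at 24 hours. Library 3 of DMSO1 at 6 hours lay nearer to DMSO2 than to its own group, and so did libraries 2 and 4 of DMSO1 at 24 hours. Library numbers are only names.

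Nppb and Nppa are close to each other on rat chromosome 5, with 10869 bases between the end of Nppb and the start of Nppa. Their promoters are shown because these neighbouring genes, which share several known regulators, differed in response below. The sequences come from RefSeq, on the plus strand of the build GRCr8, and end at the base before the annotated gene start. They are 250 bases at chr5:163711934-163712183 for Nppa and 197 bases at chr5:163699758-163699954 for Nppb. Capitals mark matches on either strand to GATAA, the core bound by GATA factors, CATTCC, the M-CAT element bound by TEAD factors, TATAAA, the TATA box, and AAGTG, the core bound by Nkx2-5.
Nppa: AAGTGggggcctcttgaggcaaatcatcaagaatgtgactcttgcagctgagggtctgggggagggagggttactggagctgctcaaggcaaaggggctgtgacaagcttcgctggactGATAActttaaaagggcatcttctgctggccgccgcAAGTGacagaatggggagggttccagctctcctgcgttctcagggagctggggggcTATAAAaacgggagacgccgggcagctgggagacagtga
Nppb: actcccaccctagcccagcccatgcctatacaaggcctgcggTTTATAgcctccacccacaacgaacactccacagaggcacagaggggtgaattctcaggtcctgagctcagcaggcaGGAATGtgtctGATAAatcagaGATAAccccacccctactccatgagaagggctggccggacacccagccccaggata

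The Nppb window held 2 matches to GATAA, at -67 to -63 and -56 to -52 from the annotated gene start. On the minus strand it held 1 match to CATTCC at -78 to -73 and 1 to TATAAA at -155 to -150. The Nppa window held 1 match to GATAA at -131 to -127, 2 to AAGTG and a TATAAA at -39 to -34, all on the plus strand. Of 33469 RefSeq promoters, 19.9% held a GATAA, 3.11% held 2 or more, 9.58% held a CATTCC and 9.86% a TATAAA in a window of 197 bases. In a window of 250 bases 23.5% held a GATAA, 12.9% a TATAAA and 40.6% an AAGTG. Each window was the first stretch of that length in a promoter entry, so for other genes it need not end at the annotated gene start. A match describes the letters only.

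The peptide genes had their highest levels in different groups. Nppa was lowest in the 24-hour controls and Ace and highest in Dox at 24 hours, and Nppb was highest in DMSO1, Dox and 5FU at 6 hours and low in all groups at 24 hours. In order of the median, Nppa was 1017 CPM in DMSO2, 1312 in DMSO1 and 1589 in Ace at 24 hours, 3 groups whose ranges overlapped. The next were 5FU at 24 hours with 5789, DMSO2 at 6 hours with 6222, Ace at 6 hours with 6934, DMSO1 at 6 hours with 8316, Dox at 6 hours with 10694, 5FU at 6 hours with 10825 and Dox at 24 hours with 12215 CPM. Each of these overlapped its neighbour in the order, and the only gap was between Ace and 5FU at 24 hours. For Nppb the medians were 20.4 CPM in DMSO2, 22.9 in 5FU, 23.4 in DMSO1 and 25.7 in Ace at 24 hours, 31.97 in Ace and 32.6 in DMSO2 at 6 hours and 44.3 in Dox at 24 hours. A gap then separated 5FU at 6 hours, with 168, from those below, and Dox and DMSO1 at 6 hours had 218 and 453 CPM.

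**Figure D1:**
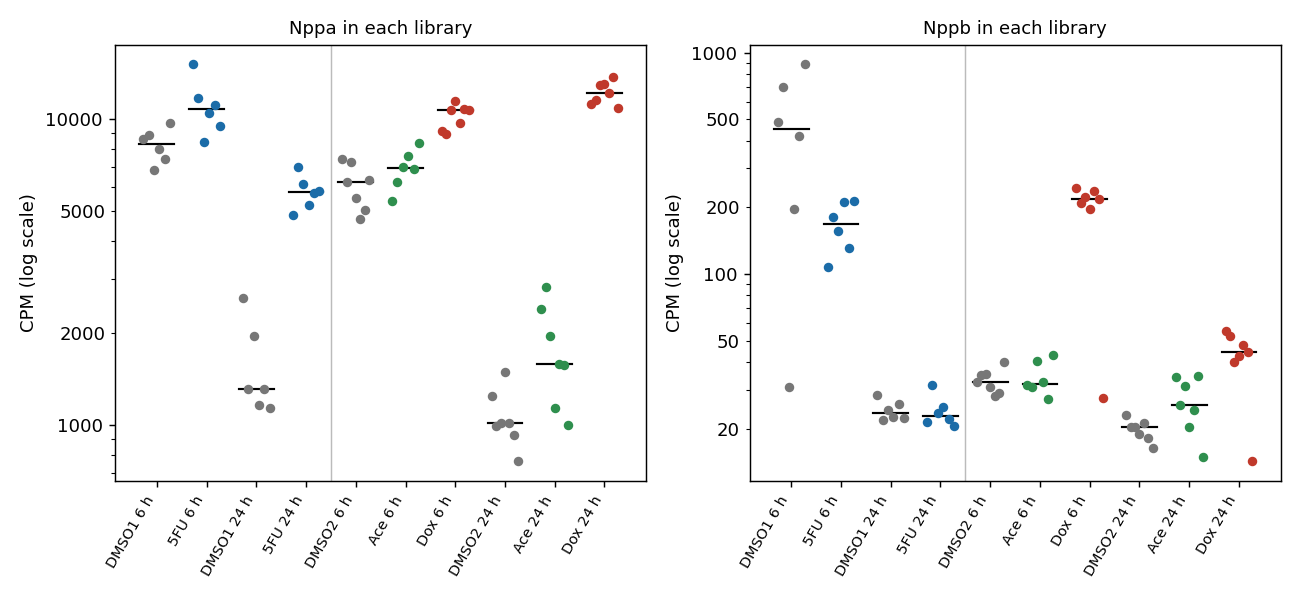
Nppa (left) and Nppb (right) in each of the 65 libraries, as CPM on a log axis, for the 10 groups on the horizontal axis; points are libraries in the order of their number and black lines are group medians. Nppb ran from 30.7 to 883 CPM in DMSO1 at 6 hours, and 1 Dox library lay far below the others at each time point, while the Nppa levels of these libraries were 6808, 10694 and 10914 CPM, near or within those of their groups.

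In the controls, Nppa fell and Corin and all 3 receptors rose between 6 and 24 hours. Nppa ran from 4730 through a median of 6222 to 7416 CPM in the 7 DMSO2 libraries at 6 hours and from 764 through 1017 to 1494 at 24 hours. In DMSO1 it ran from 6808 through 8316 to 9729 and from 1137 through 1312 to 2600 CPM. All 24-hour libraries were below all 6-hour libraries under both controls. The log2 fold change was -2.51 (SE 0.16, FDR 1.36e-20) in DMSO2 and -2.38 (SE 0.18, FDR 1.98e-18) in DMSO1, by edgeR's quasi-likelihood test with the FDR taken over all genes.

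Corin rose from a median of 4.44 to 13.5 CPM in DMSO2 (log2 fold change 1.58, SE 0.16, FDR 2.96e-13) and from 3.48 to 7.29 CPM in DMSO1 (1.16, SE 0.18, FDR 7.24e-08), with no overlap in either. Npr2 rose by 0.74 (SE 0.074) and 0.91 (SE 0.081) on the log2 scale, also with no overlap. Npr1 rose by 0.30 (SE 0.080, FDR 0.000911) in DMSO2 and 0.55 (SE 0.090, FDR 3e-07) in DMSO1, and its ranges overlapped under both. Npr3 rose by 1.09 (SE 0.16) in DMSO2 with no overlap and by 1.46 (SE 0.18) in DMSO1, where library 1 at 24 hours, with 3.30 CPM against 9.03 to 12.1 in the others, lay among the 6-hour values. Without that library the rise of Npr3 in DMSO1 was 1.63. Nppb in DMSO2 had a log2 fold change of -0.74 (SE 0.33, FDR 0.0489) that did not pass the threshold of 0.01, although all 7 libraries at 24 hours, at 16.4 to 23.1 CPM, were below the 28.02 to 40.2 CPM of 6 hours. In a fit of these 2 groups only, which leaves out the spread of Nppb in DMSO1 and Dox, it passed (-0.76, FDR 1.7e-07).

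The share of all genes called between the time points was 52.6% in DMSO2 and 53.8% in DMSO1, so the 5 of 6 members called in DMSO2 and 5 of 5 tested in DMSO1 stand against a background in which more genes were called than not. Summed markers of other cells moved with time as well in DMSO2. Fibroblast sums were 9749 to 14531 CPM at 6 hours and 15265 to 19050 at 24 hours. Macrophage sums were 67.3 to 80.5 and 119 to 146, and mural cell sums 482 to 693 and 762 to 909. Endothelial sums overlapped, at 260 to 320 and 295 to 393. The endocardial markers Nfatc1 and Plvap fell, with sums of 30.3 to 41.4 and 16.2 to 24.0. The part of these cells in the receptor values was not tested. In such bulk samples, fewer cells of a type and less RNA per cell cannot be told apart.

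Under Dox, Nppa, Nppb and Npr2 were higher than in DMSO2 at 6 hours and Npr3 was lower. At 24 hours Nppa, Nppb, Npr1 and Npr2 were higher and Corin and Npr3 lower. These were 4 of 6 members called at 6 hours, where 64.2% of all genes were called (31.5% higher, 32.7% lower), and 6 of 6 at 24 hours, where 81.4% were (40.4% higher, 41% lower). The count of members is therefore close to what any genes of this table gave, and the sizes and directions are the description.

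Nppa was the most increased member at 24 hours. Its level in Dox ran from 8929 through 10694 to 11502 CPM at 6 hours and from 10914 through 12215 to 13688 CPM at 24 hours, while the controls fell. All Dox libraries were above all DMSO2 libraries at both times, and the log2 fold change was 0.75 (SE 0.16, FDR 2.49e-05) at 6 hours and 3.52 (SE 0.17, FDR 2.55e-28) at 24 hours, an 11.5-fold difference. The difference between these effects was 2.77 (SE 0.22, FDR 2.58e-17). At 6 hours the summed cardiomyocyte markers were 46361 to 59095 CPM in Dox against 48520 to 53407 in DMSO2. Of the 14 markers 8 were higher and 4 lower, where 31.5% of all genes were higher and 32.7% lower. Their part in the Nppa value was not tested. At 24 hours the summed cardiomyocyte markers were 16915 to 23703 CPM in Dox against 45698 to 58984 in DMSO2. There 12 of these 14 markers were lower and 0 higher, against 41% and 40.4% of all genes, while Nppa was higher.

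Nppb at 6 hours had 244, 209, 222, 196, 237 and 218 CPM in Dox libraries 1 to 6 and 27.4 CPM in library 7. DMSO2 ran from 28.02 through 32.6 to 40.2 CPM. Library 7 was thus below every control while the other 6 were all above. The log2 fold change was 2.55 (SE 0.32, FDR 2.3e-10), and 2.75 (FDR 8.73e-13) without library 7. At 24 hours the levels were 55.02, 52.7, 39.9, 42.8, 47.96 and 44.3 CPM in libraries 1 to 6 and 14.2 in library 7, against 16.4 to 23.1 in DMSO2. Again only library 7 was below the controls. The log2 fold change was 1.09 (SE 0.33, FDR 0.00205), and 1.28 (FDR 0.00036) without it. The Nppb effect was smaller at 24 than at 6 hours, by -1.46 (SE 0.45, FDR 0.00341), in contrast to that of Nppa. Levels of Nppb in drug groups had been seen in earlier results, so these tests are not independent of the choice of the gene.

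Library 7 of both Dox groups carried the label of Dox. Its Nppa level was 10694 CPM at 6 hours, within the range of the others, and 10914 at 24 hours, the lowest of the group. Its Npr1 at 24 hours, 42.3 CPM, was the highest of the group. Its summed cardiomyocyte markers were the lowest of the group at both times, at 46361 and 16915 CPM. Its fibroblast and endothelial sums were the lowest at 24 hours, at 1952 and 26.4 CPM, but not at 6 hours. The cause of the low Nppb in these libraries was not tested.

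Among the receptors, Npr1 was unlike Npr3. Npr1 at 6 hours ran from 11.1 to 12.9 CPM in Dox and from 10.5 to 12.8 in DMSO2 (log2 fold change 0.08, SE 0.081, FDR 0.392). At 24 hours it ran from 34.5 through 35.6 to 42.3 CPM in Dox against 11.98 through 14.1 to 15.2 in DMSO2, with no overlap (1.39, SE 0.078, FDR 2.51e-25). This was the highest Npr1 level of the 10 groups, and the difference between the times was 1.31 (SE 0.11, FDR 2.49e-16). Npr2 was higher at both times, at 30.5 to 40.02 CPM against 20.1 to 26.4 at 6 hours (0.59, SE 0.074, FDR 1.94e-10) and 62.6 to 80.3 against 36.9 to 42.3 at 24 hours (0.86, SE 0.071, FDR 1.87e-17), and here too no library overlapped. At 24 hours fibroblast markers were lower in 10 of 10 in Dox, with sums of 1952 to 4107 against 15265 to 19050 CPM, macrophage markers in 10 of 10 (45.2 to 63.96 against 119 to 146) and mural cell markers in 5 of 6 (266 to 359 against 762 to 909). The other 1 mural cell marker was called higher, and of all genes 41% were lower and 40.4% higher. The part of these cells in the Npr1 and Npr2 values was not tested.

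Npr3 fell 3.56-fold at 6 hours, from 4.31 to 5.55 CPM in DMSO2 to 0.840 to 2.06 in Dox (-1.83, SE 0.20, FDR 1.96e-12), with no overlap. At 24 hours the ranges, 6.34 to 8.67 in Dox and 7.71 to 13.4 in DMSO2, overlapped, and the log2 fold change was -0.45 (SE 0.16, FDR 0.00842). That call is at the edge of the threshold. It was lost in 10 of 14 fits with a single library removed (libraries 1, 2, 3 and 7 of DMSO2 and 1, 2, 3, 4, 6 and 7 of Dox), with values of -0.51 to -0.38. The change between the times was 1.38 (SE 0.26, FDR 3.02e-06). Npr3 is known from endocardial and other non-muscle cells. Endothelial markers were lower in 9 of 9 at both times, with sums of 87.6 to 135 CPM in Dox against 260 to 320 at 6 hours and 26.4 to 58.8 against 295 to 393 at 24 hours. Of all genes 32.7% were lower in Dox at 6 hours and 41% at 24 hours. Cldn5 was the 1 endothelial marker at 0 in some libraries. The 2 endocardial markers Nfatc1 and Plvap summed to 15.6 to 27.2 CPM against 30.3 to 41.4 at 6 hours, and to 22.2 to 29.3 against 16.2 to 24.0 at 24 hours. Both were called lower at 6 hours. At 24 hours 1 of them was called higher and the other lower, so the sum does not describe both. The part of these cells in the Npr3 values was not tested.

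Corin in Dox was 3.07 to 6.74 CPM at 6 hours against 3.37 to 5.21 in DMSO2 (0.35, SE 0.17, FDR 0.0565). Without the libraries that stood apart, 2 of which are in Dox at 6 hours, this difference was 0.49 and passed (FDR 0.00466). At 24 hours it was 5.07 to 8.23 against 11.5 to 14.7 CPM, with no overlap (-1.11, SE 0.16, FDR 2.08e-09). The change between the times was -1.46 (SE 0.23, FDR 6.24e-08). The medians of Corin in Dox were 6.41 and 5.84 CPM, while it rose in the control.

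**Figure D2:**
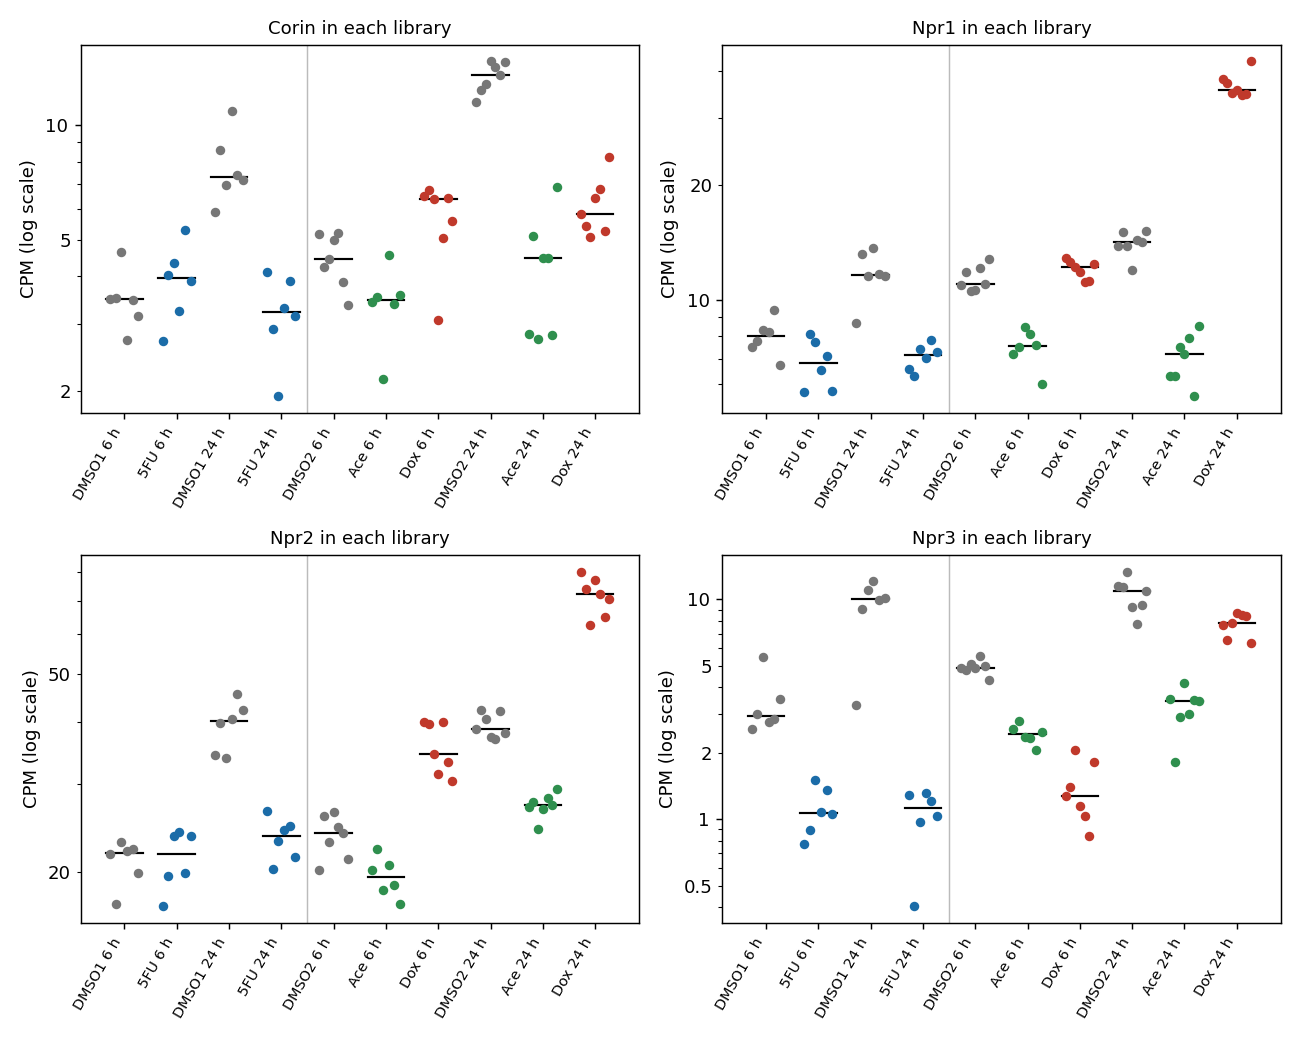
Corin, Npr1, Npr2 and Npr3 in each of the 65 libraries, as CPM on log axes, for the 10 groups; points are libraries in the order of their number and black lines are group medians. Npr1 and Npr2 are highest in Dox at 24 hours, at 34.5 to 42.3 and 62.6 to 80.3 CPM, and Npr3 is at most 2.06 CPM in 5FU at both times and in Dox at 6 hours.

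Under 5FU, Npr3 was the only member called at 6 hours, and at 24 hours Nppa was higher while Corin and the 3 receptors were lower. At 6 hours 1 of 5 tested members was called, against 47.9% of all genes (23.4% higher, 24.5% lower), and at 24 hours 5 of 6, against 55.8% (28% higher, 27.8% lower). Npr3 ran from 0.771 through 1.07 to 1.52 CPM in 5FU against 2.58 through 2.94 to 5.48 in DMSO1 at 6 hours (-1.59, SE 0.23, FDR 1.47e-08), and the value was -1.31 (FDR 3.01e-08) without the 6 distant libraries. At 24 hours it ran from 0.402 through 1.12 to 1.31 against 3.30 through 10.1 to 12.1 (-3.16, SE 0.22, FDR 8.85e-20), an 8.94-fold difference and the largest decrease among the members in any drug comparison. No library overlapped at either time, and the 24-hour value was -3.34 without library 1 of DMSO1. At these levels Npr3 rested on few reads, 8 to 25 counts per library in 5FU at 24 hours.

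Nppa at 24 hours ran from 4877 through 5789 to 6993 CPM in 5FU against 1137 through 1312 to 2600 in DMSO1, with no overlap (1.88, SE 0.17, FDR 1.43e-14). At 6 hours it ran from 8442 to 15097 against 6808 to 9729 (0.43, SE 0.17, FDR 0.0262), which did not pass, although an exact two-sided permutation of the libraries gave an unadjusted p of 0.015. The highest value was that of library 1, one of the 6 distant libraries, and without these the log2 fold change was 0.26 (FDR 0.178). Nppb at 24 hours was 20.6 to 31.5 CPM in 5FU and 21.96 to 28.4 in DMSO1, with a log2 fold change of -0.01 (SE 0.36, FDR 0.985). So at 24 hours the neighbouring peptide genes differed, with Nppa 3.67-fold higher and the Nppb ranges overlapping. At 6 hours Nppb ran from 108 through 168 to 215 CPM in 5FU, inside the wide range of DMSO1 and above all 7 libraries of DMSO2 at that time. The fitted difference to DMSO1, not tested, was -1.44, and -1.69 without library 3 of DMSO1.

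Corin in 5FU at 24 hours was 1.94 to 4.10 CPM against 5.91 to 10.9 in DMSO1 (-1.28, SE 0.18, FDR 9.72e-09). Npr1 was 6.28 to 7.84 against 8.69 to 13.7 CPM (-0.73, SE 0.092, FDR 3.82e-10) and Npr2 20.2 to 26.5 against 33.9 to 45.6 CPM (-0.75, SE 0.081, FDR 2.02e-12). For each of these 3 genes all 5FU libraries were below all controls. How many of all genes had no overlap was not counted. At 6 hours Corin (0.17, FDR 0.459, and 0.35 with FDR 0.0999 without the 6 distant libraries), Npr1 (-0.23, FDR 0.0327) and Npr2 (0.02, FDR 0.838) did not pass. The change of the 5FU effect between the times was called for all 5 members tested, against 39.5% of all genes, with values of -1.57 for Npr3, -1.45 for Corin, -0.78 for Npr2, -0.50 for Npr1 and 1.45 for Nppa. Fibroblast markers were lower in 10 of 10 in 5FU at 24 hours, with sums of 5217 to 5884 against 10059 to 20039 CPM, and the summed cardiomyocyte markers were 33423 to 35688 against 44408 to 50681 CPM. Endothelial markers were lower in 7 of 9 (162 to 190 against 228 to 324 CPM), where 27.8% of all genes were lower. Nfatc1 and Plvap summed to 8.03 to 9.71 against 9.16 to 21.6 CPM, and 1 of these genes was not called. The part of these cells in the receptor values was not tested.

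Under Ace, the receptors were lower at 6 hours, and at 24 hours Corin was lower and Nppa higher as well. The called members were 3 of 6 at 6 hours, against 31.7% of all genes (16.5% higher, 15.2% lower), and 5 of 6 at 24 hours, against 37.2% (18.2% higher, 19.1% lower). At 6 hours Npr1 was 6.00 to 8.46 CPM against 10.5 to 12.8 in DMSO2 (-0.61, SE 0.088, FDR 4.51e-08) and Npr3 was 2.08 to 2.80 against 4.31 to 5.55 (-1.01, SE 0.19, FDR 1.46e-05), both with no overlap. Npr2, at 17.2 to 22.3 against 20.1 to 26.4 CPM, overlapped (-0.27, SE 0.080, FDR 0.00406). The Npr2 call was lost in 5 of 13 fits with a single library removed, those without library 3, 5 or 6 of Ace or 2 or 4 of DMSO2, with values of -0.31 to -0.23.

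At 24 hours Npr1 was 5.57 to 8.51 CPM in Ace against 11.98 to 15.2 in DMSO2 (-0.998, SE 0.083, FDR 6.51e-16), Npr2 was 24.4 to 29.3 against 36.9 to 42.3 (-0.54, SE 0.073, FDR 8.02e-09) and Npr3 was 1.82 to 4.15 against 7.71 to 13.4 (-1.71, SE 0.17, FDR 5.14e-13). Corin was 2.73 to 6.88 against 11.5 to 14.7 CPM (-1.68, SE 0.16, FDR 8.07e-14). All Ace libraries were below all controls for these 4 genes. The share of all genes without overlap was not counted. Nppa ran from 1000 through 1589 to 2841 CPM against 764 through 1017 to 1494 (0.74, SE 0.16, FDR 6.47e-05), and its ranges overlapped. Nppb was 14.9 to 34.8 CPM against 16.4 to 23.1 (0.42, SE 0.33, FDR 0.309). Of the changes between the times, that of Corin passed (-1.30, SE 0.24, FDR 3.52e-05), 1 of 6 members against 11.6% of all genes. Fibroblast markers were lower in 10 of 10 in Ace at 24 hours, with sums of 7310 to 9348 against 15265 to 19050 CPM. Endothelial markers were lower in 6 of 9 (180 to 314 against 295 to 393 CPM), where 19.1% of all genes were lower. Nfatc1 and Plvap summed to 10.7 to 12.1 against 16.2 to 24.02 CPM, and 1 of these genes was not called. The part of these cells in the receptor values was not tested.

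**Figure D3:**
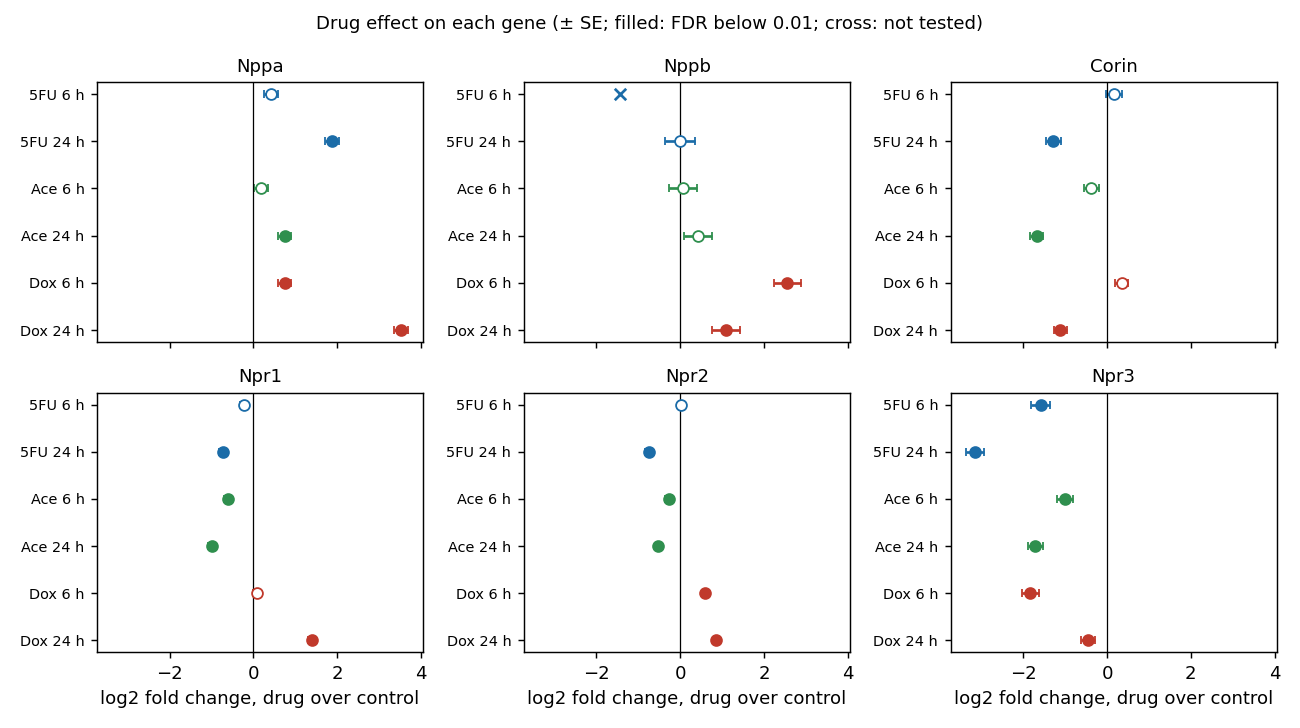
Log2 fold change of each of the 6 genes in each drug over its own control at 6 and 24 hours, from the edgeR fit, with bars of 1 SE; filled points passed an FDR of 0.01, open points did not, and the cross marks Nppb in 5FU at 6 hours, which was not tested. Nppa lies at 3.52 in Dox at 24 hours and Npr3 at -3.16 in 5FU at 24 hours, and Npr1 lies above 0 in Dox and below it in 5FU and Ace at 24 hours.

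The drugs can be set side by side at 24 hours. Corin was lower under all 3, by 1.11 to 1.68 on the log2 scale, and Nppa higher under all 3, from 0.74 in Ace to 3.52 in Dox. Npr1 and Npr2 were lower in 5FU and Ace and higher in Dox. Ace and Dox share the DMSO2 libraries, so their values are not independent of each other. The differences between drugs were not tested. The change of the Dox effect between 6 and 24 hours was called for 5 of 6 members against 64.8% of all genes, with Npr2 (0.27, SE 0.10, FDR 0.0158) as the exception. That value passed with filterByExpr (0.29) and with scaling by library size only (0.47), and the change of Nppb (-1.25, FDR 0.011) did not pass with the latter.

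Comparing the controls asks whether the DMSO share alone moved these genes. At 24 hours 1 of 6 members was called, against 0.433% of all genes: Corin, at 5.91 to 10.9 CPM in DMSO1 and 11.5 to 14.7 in DMSO2 (-0.77, SE 0.16, FDR 0.0048). This difference was known when the genes were chosen, so its test and the count of members called are not independent of that choice. The call is lost without library 1 of DMSO1 (FDR 0.0285) and in 7 other fits with a single library removed. At 6 hours, as a description, the log2 difference between DMSO1 and DMSO2 was 3.78 for Nppb, 0.44 for Nppa, -0.17 for Npr2, -0.36 for Corin, -0.51 for Npr1 and -0.54 for Npr3. Nppb had 484, 702, 30.7, 196, 422 and 883 CPM in DMSO1 libraries 1 to 6, a 28.8-fold range. Library 3 lay within the DMSO2 range and the other 5 lay above it. Nppa, at 8630, 8872, 6808, 8002, 7401 and 9729 CPM in the same libraries, had a 1.43-fold range, with library 3 lowest. Library 3 also had the highest Corin, 4.63 CPM, and the highest Npr3, 5.48 CPM, and with both it lay inside the range of DMSO2.

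Within groups, Nppb varied from library to library together with other genes, of which only the closest are named here. How many genes did so was not counted. Over the residuals of log2 CPM from the group means in the 65 libraries, Pearson's r with Nppb was 0.93 for Xirp2, an actin-binding protein of the intercalated disc, 0.91 for Scn3b, a beta subunit of the sodium channel, 0.90 for Csrp3, the muscle LIM protein of the Z disc, 0.89 for Fads3 and 0.89 for Ildr2. These are descriptions over libraries of the same groups, and the genes were ranked by them. Library 3 of DMSO1 and library 7 of both Dox groups weigh in all of them. In DMSO1 at 6 hours Xirp2 had 1203, 1511, 115, 274, 738 and 1488 CPM in libraries 1 to 6, so that libraries 3 and 4 were lowest, as for Nppb. In Dox at 6 hours Xirp2 was 578 to 886 CPM in libraries 1 to 6 and 106 in library 7, and Csrp3 was 921 to 1666 and 419. At 24 hours library 7 had 23 CPM of Xirp2 and 25.4 of Csrp3 against 52.8 to 74.5 and 106 to 134 in the others.

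**Figure D4:**
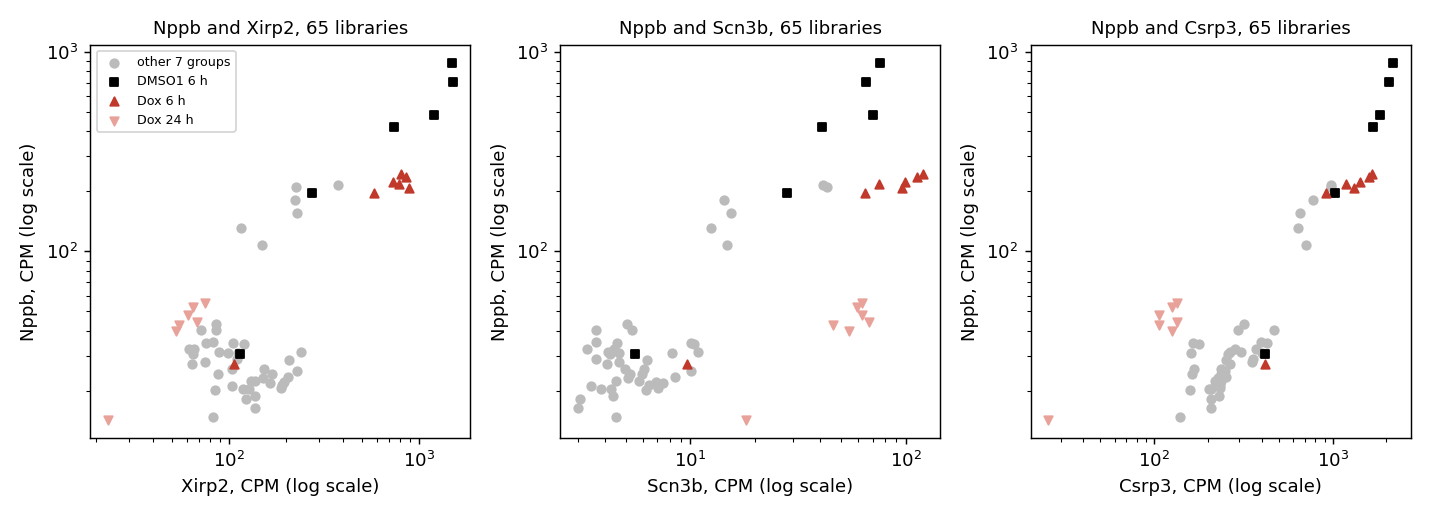
Nppb (vertical) against Xirp2, Scn3b and Csrp3 (horizontal) in the 65 libraries, in CPM on log axes, with DMSO1 and Dox at 6 hours and Dox at 24 hours marked and the other groups in grey. Library 3 of DMSO1, at 30.7 CPM of Nppb and 115 of Xirp2, and library 7 of Dox at 6 hours, at 27.4 and 106, lie among or next to the grey points.

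The pattern of Nppb across groups was closest to that of Ildr2 (r = 0.98 over 10 group means), Fhad1 (0.97) and Fhl1 (0.96), a LIM protein of the sarcomere. For Nppa the closest residuals were those of Nqo1 (0.75), Gpx1 (0.74), Emc4 (0.74), Psmc2 (0.72) and Casq1 (0.71), and the closest group means those of Aaas (0.97), Klc2 (0.97) and Ppil3 (0.97). Nqo1 and Gpx1 encode antioxidant enzymes. Nqo1 at 24 hours was 157 to 221 CPM in Dox and 52.2 to 87.7 in Ace against 24.2 to 37.8 in DMSO2. In 5FU at that time it was 87.4 to 105 CPM against 31.1 to 69.4 in DMSO1. In DMSO2 at 6 hours Nqo1 was 147 to 173 CPM. For Corin the closest residuals were Tmem164 (0.72), Rgs6 (0.69), Sorcs2 (0.68), Cryzl2 (0.67) and Mest (0.65), and the closest group means Cd38 (0.96), Msi1 (0.94) and Gpnmb (0.94). By group means Npr1 was most like Itpkb (0.98), Exoc3l1 (0.97) and Dok2 (0.97), Npr2 most like Gkap1 (0.97), Hsd11b1 (0.97) and C2 (0.97), and Npr3 most like Sema6a (0.97), Six5 (0.96) and Nek6 (0.95). With 10 group means that share control groups, these values rank genes and do no more.

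Among the members themselves, the residuals of Nppa and Nppb had r = 0.24 (Spearman's rho 0.36) over the 65 libraries of all groups. In DMSO1 at 6 hours, where Nppb spread most, library 3 was lowest and library 6 highest for both genes. The range there was 28.8-fold for Nppb and 1.43-fold for Nppa. Over all residuals the lowest r values were those of Nppa with Npr2 (r = -0.56) and Npr1 (-0.55). Over the 10 group means Npr1 and Npr2 had the highest value of the 15 pairs (0.92) and Nppa and Nppb had 0.64.

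The other genes of the pathway came from 6 lists of 22 genes in the table. The counts, which are descriptions, were 0 higher and 11 lower in 5FU at 6 hours (median log2 fold change -0.50), 1 and 8 in Ace (-0.28) and 7 and 12 in Dox (-0.53). At 24 hours they were 0 and 16 in 5FU (-0.59), 1 and 11 in Ace (-0.34) and 10 and 9 in Dox (0.14). The median over all genes was between -0.0094 and 0.0030 in these comparisons. Of all genes 24.5% were lower in 5FU, 15.2% in Ace and 32.7% in Dox at 6 hours, and 27.8%, 19.1% and 41% at 24 hours, where 40.4% were higher in Dox. The Dox counts of 10 and 9 of 22 at 24 hours lie near these shares.

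Nppc, which encodes CNP, the ligand of Npr2, was at 0 to 2 counts in every DMSO2 library. In Dox it had 24 to 60 counts at 6 hours (0 to 2 in DMSO2) and 93 to 177 at 24 hours. Its levels in Dox were 1.32 through 2.81 to 3.28 CPM and 5.49 through 8.89 to 10.0 CPM, and it was called in both. Outside Dox no library had more than 7 counts, so Nppc passed the filter of 10 counts only through the Dox groups. Its calls, which are among the pathway counts above, are therefore no independent support, and no FDR is given. No fold is given against libraries at or under 3 counts. In 5FU and Ace no Nppc count was above 7.

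Of the proteases that cut the precursors, Furin was called in Dox at 24 hours (0.40, SE 0.073) and Pcsk6, which is known to activate Corin, in Dox at 6 (0.56) and 24 hours (2.53, SE 0.19, FDR 1.03e-19), where its mean rose from 12.1 to 69.4 CPM. Neither was called in 5FU or Ace. Of the 3 degrading proteases, Mme, the neprilysin that breaks down the peptides, was lower at 24 hours in 5FU (-2.25, SE 0.21) and Ace (-1.79, SE 0.17) and higher in Dox at 6 (0.85) and 24 hours (1.04, SE 0.14). Mme levels were low, with a mean of 3.38 CPM in DMSO2 at 24 hours.

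Soluble guanylyl cyclase, the nitric oxide receptor, is the other main source of cyclic GMP. Its alpha subunit Gucy1a1 was lower in all 6 drug comparisons, by 0.46 to 1.23 on the log2 scale. Its beta subunit Gucy1b1 was higher in Ace at 6 (0.31) and 24 hours (0.52) and lower in Dox at 6 (-0.46) and 24 hours (-2.06, SE 0.088). At 24 hours 27.8% of all genes were lower in 5FU and 19.1% in Ace. The phosphodiesterases that break down cyclic GMP were lower in 7 of 7 in 5FU and 6 of 7 in Ace at that time. In Dox at 24 hours 5 of 7 were lower and 2 higher, where 81.4% of all genes were called. Pde2a fell from a mean of 38.7 to 2.16 CPM (-4.18, SE 0.10) and Pde5a rose from 4.41 to 30.96 CPM (2.81, SE 0.11). Of the 6 effectors, 1 was higher and 4 lower in Dox at 6 hours (median -0.61), where 31.5% and 32.7% of all genes were. At 24 hours 4 effectors were higher and 2 lower (0.44), against 40.4% and 41% of all genes. Vasp, a substrate of the cyclic GMP kinase, was lower in all 6 comparisons, and Prkg2, a cyclic GMP kinase, was called higher in Dox at 24 hours, with 7 to 18 counts against 0 to 4 in DMSO2 and no fold given at such counts.

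**Figure D5:**
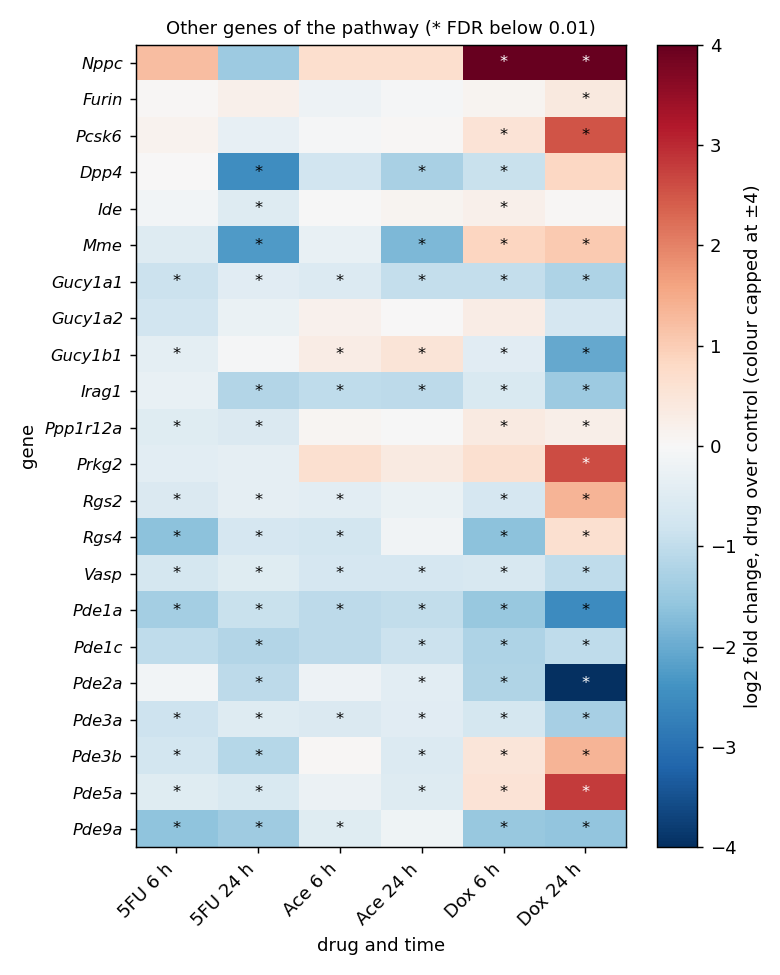
Log2 fold change of the 22 other pathway genes (rows) in each drug over its own control at 6 and 24 hours (columns), with colour capped at 4 in either direction and stars for an FDR below 0.01. Pde5a is at 2.81 and Pde2a at -4.18 in Dox at 24 hours, and 16 of the 22 genes are lower and 0 higher in 5FU at 24 hours.

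The 21 transcription factors known from the peptide promoters were mostly lower in Dox, 15 at 6 hours and 13 at 24 hours against 4 and 3 higher, with medians of -0.71 and -0.43, where 32.7% and 41% of all genes were lower and 31.5% and 40.4% higher. Nkx2-5, a cardiac homeobox activator, fell from a mean of 256 to 33.9 CPM at 6 hours (-2.92, SE 0.075), and Gata4, the main GATA factor of these cells, from 212 to 128 CPM (-0.73, SE 0.071). Tbx3, a repressor of the working muscle program, rose at 24 hours from 5.50 to 40.6 CPM (2.88, SE 0.11), and Rest, a repressor known to bind the Nppa gene, was higher at 6 hours (1.16, SE 0.057). In 5FU 3 were higher and 12 lower at 6 hours, against 23.4% and 24.5% of all genes. At 24 hours they were 4 and 8, against 28% and 27.8%. In Ace 2 were higher and 5 lower at 6 hours, against 16.5% and 15.2%, and 0 and 6 at 24 hours, against 18.2% and 19.1%.

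The hypertrophic ligands and receptors, which are known inducers of the peptides, were lower in most cases, 7 of 10 in Dox at 24 hours against 2 higher (median -1.12), where 41% of all genes were lower and 40.4% higher. The 2 were Edn1, encoding endothelin-1 (2.42, SE 0.19, means of 1.45 and 7.80 CPM), and Lif, leukaemia inhibitory factor (5.01, SE 0.23, means of 2.42 and 77.7 CPM). In 5FU and Ace at 24 hours Edn1 was lower (-1.49 and -1.66) and Lif higher (1.17 and 1.498). In 5FU at that time Il6st (0.20), a shared receptor subunit of the Lif family, was also higher. Of the 7 genes that accompany the peptides in the fetal program, 5 were higher and 1 lower in Dox at 6 hours, with Xirp2 at 3.001 (SE 0.31), Acta1, skeletal actin, at 1.72 (SE 0.28) and Myh7, the slow myosin heavy chain, at 1.49 (SE 0.23). At 24 hours 3 were higher and 4 lower, and Xirp2 (-1.18), Myh7 (-1.12) and Ankrd1 (-3.69), a stress-responsive ankyrin protein of the sarcomere, were lower.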

How the data were processed

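PolyA RNA of 65 cultures was sequenced. The deposited values are estimated counts per gene as whole numbers, without normalization: the authors assigned paired reads with kallisto 0.46.0, per the submitters' processing notes, used tximport to sum transcripts to Entrez genes, and dropped genes whose counts were low throughout. Columns of the authors' own fold changes and p-values were not used. Groups came from the labels. The column names give a group but no replicate, and library numbers are only names. Symbols and promoters came from RefSeq (GRCr8), and 5 of the 6 members had a promoter entry. The reads were assigned to another annotation, so coordinates are given only for the promoter windows of Nppa and Nppb.

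In R 4.3.3, genes with at least 10 counts in at least 1 library (all 14554) were scaled by TMM and fitted in 1 edgeR 4.0.16 quasi-likelihood model of 10 groups. There were 12 contrasts, and calls were made at a Benjamini-Hochberg FDR below 0.01 over all genes. Log2 CPM used a prior count of 2. The code was tested on simulated counts. Members, lists and tests were chosen with earlier results of these data known. Named genes were the 6 members, listed genes beside their list, the 3 genes most like each member over group means, and the 5 most like Nppa, Nppb and Corin over residuals, with a mean of at least 1 CPM. Of 119 listed genes in 15 lists, 112 were in the table. Alternatives were DESeq2 1.42.0 (Wald test, size factors), library size only, compared groups only, filterByExpr, no filter, exact permutation, a prior count of 0.5, each library left out and, chosen after seeing the data, the 6 distant libraries left out. Depth limits Npr3, Nppc and Prkg2, which had few reads in some or all groups.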

Additional observations from a re-analysis of the deposited data

Results flagged for a closer look

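Of 60 sets of a member in a group, 5 held a library far from the rest by Dixon's criterion at 95%, where chance gives about 1 in 20. These were Nppb in library 7 of Dox at 6 hours (27.4 CPM, next lowest 196), Nppb in library 7 of Dox at 24 hours (14.2 CPM, next lowest 39.9), Npr1 in library 4 of DMSO2 at 24 hours (11.98 CPM, next lowest 13.8), Npr3 in library 3 of DMSO1 at 6 hours (5.48 CPM, next highest 3.51) and Npr3 in library 1 of DMSO1 at 24 hours (3.30 CPM, next lowest 9.03). Nppb in DMSO1 at 6 hours was not among them, because its values were spread over the whole range.

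The drug effect differed between 6 and 24 hours, by the interaction contrast of the edgeR model, for 11 pairs of a member and a drug. Of all genes 39.5% were called for this contrast in 5FU, 11.6% in Ace and 64.8% in Dox. For 5FU the differences in log2 fold change were -1.45 for Corin, 1.45 for Nppa, -0.50 for Npr1, -0.78 for Npr2 and -1.57 for Npr3. For Ace it was -1.30 for Corin. For Dox they were -1.46 for Corin, 2.77 for Nppa, -1.46 for Nppb, 1.31 for Npr1 and 1.38 for Npr3.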

How the results depend on the processing

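No paired analysis was possible because the columns carry no replicate numbers. For Npr3 in Dox at 24 hours, the call was lost with the Wald test of DESeq2 (-0.41), its size factors (-0.41), filterByExpr (-0.42) and library size only (-0.40), and with single libraries left out it ran from -0.51 to -0.38. Library size only added Npr1 in 5FU at 6 hours (-0.30), which ran from -0.29 to -0.18 with single libraries left out, and turned the uncalled Npr1 in Dox (-0.076) and Npr2 in 5FU (-0.049) at 6 hours; Npr2 in 5FU ran from -0.032 to 0.074 with single libraries left out. Exact permutation, read at an unadjusted 0.05, added Corin in Ace (-0.39) and Nppa in 5FU (0.41) at 6 hours. Leaving out the 6 distant libraries added Corin in Dox at 6 hours (0.49). The uncalled Nppb in 5FU at 24 hours turned to 0.0059 with filterByExpr and 0.029 without the 6 libraries, and ran from -0.089 to 0.047 with single libraries left out. Nppb in Ace at 6 hours ran from -0.012 to 0.12 and Npr2 in Ace at 6 hours from -0.31 to -0.23. The members called in 5FU at 6 hours were 2 by permutation and by library size only, and 1 to 2 with single libraries left out. Between the controls at 24 hours, Npr2 turned to 0.0063 with the compared groups only, 0.0059 with filterByExpr, 0.045 with library size only and 0.045 without the 6 libraries, and ran from -0.041 to 0.037 with single libraries left out; Npr3 turned to 0.0081 without the 6 libraries. Library size only also ended the call for the rise of Npr1 in DMSO2 with time (0.23), and the compared groups only added the change of Npr3 under Ace (-0.70). With single libraries left out, the change of Npr1 under Ace passed in 3 of 27 fits (-0.46 to -0.34) and that of Npr2 under Dox in 6 of 28 (0.24 to 0.32). No other difference between a drug and its control changed its call or direction under these settings. Where not stated, the cause was not tested. Depth limits Npr3, at 8 to 25 counts in 5FU at 24 hours.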
